A study of Mus musculus with 4 samples.

Results

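A set of 9 genes of dopamine and cyclic AMP signalling in striatal projection neurons were followed through single nuclei of the mouse cerebral cortex: Drd1, Drd2, Drd3, Adora2a, Ppp1r1b, Pde10a, Adcy5, Rgs9 and Ano2. They were chosen by name, 9 of the 21933 genes in the matrices, and each was found. Their high level in striatal-type nuclei and the genotype difference of Ano2 were known when they were chosen. Those values are therefore given as a description with no test, and tests between genotypes are reported for the other 8 genes.

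Nuclei came from the whole cortex of the right hemisphere of untreated male mice at postnatal day 100, with 1 animal per library. The 2 Control libraries were from CrT+/y mice and the 2 CrT-KO libraries from CrT-/y littermates, hemizygous for a deletion within Slc6a8, the X-linked gene of the creatine transporter. Both genotypes were on the C57Bl/6 J background. After doublets were removed, 34458 of 35694 nuclei were kept, with 8041 and 8907 in Control and 8962 and 8548 in CrT-KO, and median counts of unique molecular identifiers (UMIs) per nucleus between 5471.5 and 6590. Pairs of libraries shared 12 to 19 cell barcodes, at most 0.215% of the smaller library. Slc6a8 gave 348 and 334 UMIs in Control and 101 and 79 in CrT-KO, so the targeted gene went with the labels in 4 of 4 libraries.

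Dopamine acts in the striatum on medium spiny neurons (MSNs), the inhibitory projection neurons of that region. One class of MSN carries the Drd1 receptor, which couples through the G protein subunit Gnal to adenylyl cyclase and raises cyclic AMP. The other carries the Drd2 receptor, which lowers it, together with the adenosine receptor Adora2a, which raises it. Adcy5 is the main cyclase of these cells, Pde10a is a phosphodiesterase that breaks down cyclic AMP and cyclic GMP, Ppp1r1b (DARPP-32) is the phosphatase inhibitor through which protein kinase A acts, and Rgs9 speeds the shut-off of G proteins. Ano2 encodes a calcium-activated chloride channel best known from olfactory neurons.

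The stretches before the transcription starts of 3 members are printed because Drd1 and Drd2 separated the types of MSN and Ano2 was the member that differed most between genotypes in MSN-like nuclei. Each is the 250 bases upstream of a RefSeq start (GRCm38.p6), 5′ to 3′ on the strand of the gene, and capitals mark GC boxes (GGGCGG or its complement CCGCCC). The Drd1 stretch lies on the minus strand at chr13:54055659-54055908, and its start is 47 bases inside the GENCODE gene. The Drd2 stretch lies on the plus strand at chr9:49340153-49340402, with its start 224 bases before the GENCODE gene. The Ano2 stretch lies on the plus strand at chr6:125690169-125690418 and ends just before the GENCODE start. RefSeq lists further starts for Drd1 and Ano2, and the one nearest the GENCODE start is shown.
Drd1: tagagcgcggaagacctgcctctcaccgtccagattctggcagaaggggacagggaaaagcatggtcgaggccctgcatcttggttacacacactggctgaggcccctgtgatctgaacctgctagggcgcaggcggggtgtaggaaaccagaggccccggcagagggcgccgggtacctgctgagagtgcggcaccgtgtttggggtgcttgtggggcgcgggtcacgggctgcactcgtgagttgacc
Drd2: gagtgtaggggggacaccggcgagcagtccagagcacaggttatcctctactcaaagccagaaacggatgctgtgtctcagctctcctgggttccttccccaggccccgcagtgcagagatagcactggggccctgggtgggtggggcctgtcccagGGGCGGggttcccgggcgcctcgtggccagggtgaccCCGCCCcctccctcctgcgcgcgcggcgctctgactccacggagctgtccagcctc
Ano2: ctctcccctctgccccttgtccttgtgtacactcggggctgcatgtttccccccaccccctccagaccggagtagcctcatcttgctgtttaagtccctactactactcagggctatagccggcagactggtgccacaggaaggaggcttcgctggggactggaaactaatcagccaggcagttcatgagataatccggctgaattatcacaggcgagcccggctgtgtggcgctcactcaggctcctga
Bases G and C made up 64% of the Drd1 stretch, 68.8% of the Drd2 stretch and 58% of the Ano2 stretch, against a median of 52.4% (quartiles 45.2% and 61.2%) over 32851 RefSeq promoters. Drd2 held 2 GC boxes, which begin 93 and 56 bases before its start. The printed Drd1 and Ano2 stretches held none, but the stretch at a further Drd1 start and 1 at a further Ano2 start, not printed, did. Of all such stretches, 32.7% held a GC box on either strand. The cyclic AMP response element TGACGTCA (1.55% of all stretches), its core TGACG, which lies inside the full element (17.8%), and the TATA motif TATAAA (12.4%) were absent from these 3 windows, which says only that those letters are not there.

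Although the tissue was labelled as cortex, 2003 of the 34458 nuclei formed MSN-like clusters. The clusters were made without the 9 members. All 14 MSN markers, none of them a member, were higher in MSN-like nuclei than in excitatory neurons and cortical interneurons in 4 of 4 libraries. The same list gave these clusters their name, so this describes the naming and is no separate test of it. The Control libraries held 536 and 512 MSN-like nuclei and the CrT-KO libraries 525 and 430. Of these, 596 were D1 MSN-like and 887 D2 MSN-like. The remaining MSN-like nuclei fell into 4 clusters that are described by their leading genes. Excitatory neurons (17077 nuclei) and cortical interneurons (3451 nuclei of PV-, SST-, VIP- and LAMP5-like type) served as the cortical neuron types. The excitatory class also held 182 Subcortical-like nuclei and clusters without a name, so it is not shown to be purely cortical. Excitatory marker genes summed to between 207 and 286 CPM in MSN-like nuclei and between 1573 and 1639 CPM in excitatory neurons. MSN marker genes summed to between 24555 and 26331 CPM in MSN-like nuclei and between 5591 and 6283 CPM in excitatory neurons. The 2 lists hold different genes, so their sums are not compared with each other. Here CPM is the UMIs of a gene per 1000000 UMIs of that population in that library.

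All 9 members were higher in MSN-like nuclei than in both cortical neuron types in 4 of 4 libraries. Among 15243 genes with at least 20 UMIs this held for 9.09%. The mean level in MSN-like nuclei over that in excitatory neurons was 242 times for Drd2, 169 for Adora2a, 102 for Drd3, 44.6 for Rgs9, 18.1 for Adcy5, 15.4 for Ano2, 13 for Drd1, 12.6 for Ppp1r1b and 2.83 for Pde10a. These ratios compare each gene with itself. UMIs were counted over whole gene bodies, introns included, so levels of different genes, from 4.52 kb for Drd1 to 461 kb for Pde10a, are not compared.

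**Figure D1:**
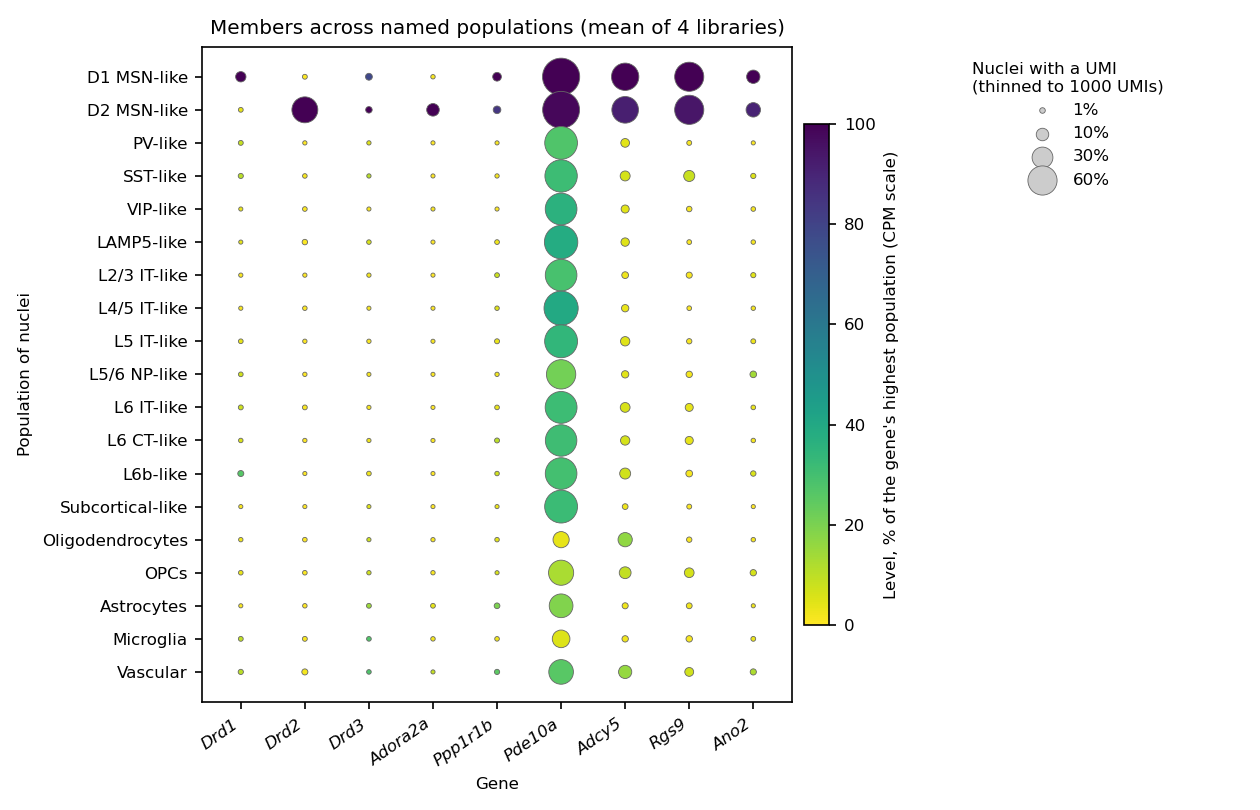
Level of each member in 19 named populations. Colour gives the mean CPM of 4 libraries as a percent of that gene's highest population, and point area the share of nuclei with a UMI after thinning to 1000 UMIs per nucleus. The highest named population of each of the 9 genes is D1 or D2 MSN-like nuclei, and Pde10a has large points in every neuron row, with 60.7% to 98.4% of nuclei.

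Drd1, the receptor that raises cyclic AMP, marked D1 MSN-like nuclei. It reached 50 and 53.6 CPM in Control and 55.9 and 77.5 CPM in CrT-KO, against 1.67 and 2.87 and then 3.59 and 1.12 CPM in D2 MSN-like nuclei. All 4 D1 values lay above all 4 D2 values, and the means differed 25.6 times. Next in order among the named populations came L6b-like nuclei, the deepest excitatory layer, at 10.7 to 21.1 CPM, below every D1 library and above every library of the population that followed, SST-like interneurons at 4.19 to 8.4 CPM. From SST-like nuclei downward the ranges of neighbours overlapped. Excitatory neurons as a whole had 2.07 to 2.31 CPM, within the 0.892 to 2.92 CPM of oligodendrocytes, which should lack the gene. The share of nuclei with a Drd1 UMI was 28% in D1 MSN-like nuclei and 0.204% in oligodendrocytes, with median depths of 5821 and 1338 UMIs.

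Because of that gap in depth, nuclei were also thinned to 1000 UMIs, which left out no MSN-like nucleus but 469 Control and 513 CrT-KO oligodendrocytes. The shares then became 6.49% and 0.147%. D2 MSN-like nuclei had a Drd1 UMI in 1.1%, or 0.408% after thinning.

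Drd2, the receptor that lowers cyclic AMP, showed the reverse order. D2 MSN-like nuclei held 742 and 677 CPM in Control and 671 and 647 CPM in CrT-KO. D1 MSN-like nuclei held between 1.05 and 10.5 CPM, and the means differed 159 times. No named population lay within 54 times of the D2 level on the mean. SST-like interneurons had 6.26 to 9.95 CPM, against 0.935 to 1.99 CPM in PV-like interneurons, and the 2 ranges did not overlap. Among named excitatory types L6 IT-like nuclei were highest, with 3.89 to 6.62 CPM. A Drd2 UMI was found in 92% of D2 MSN-like nuclei (47.2% thinned), 1.15% of D1 MSN-like nuclei (0.472% thinned) and 0.31% of oligodendrocytes (0.284% thinned).

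Adora2a, the adenosine receptor, followed Drd2. In D2 MSN-like nuclei it reached 85.4 and 101 CPM in Control and 89.1 and 98.8 CPM in CrT-KO, and in D1 MSN-like nuclei 1.05 to 2.21 CPM, a 66.9-fold difference of the means. In excitatory neurons it stayed between 0.116 and 0.416 CPM, a range that overlaps that of oligodendrocytes (0 to 1.34 CPM). Of its 624 UMIs, MSN-like nuclei gave 85.5% on the mean of 4 libraries, although they were 5.83% of the nuclei. The corresponding share for Drd2 was 84.4%.

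Drd3, a relative of Drd2 known from the ventral striatum, did not separate D1 from D2 nuclei. It had 10.5 and 12.6 CPM in Control and 26.8 and 19.9 CPM in CrT-KO in D1 MSN-like nuclei, and 14.2, 28.7, 29.5 and 16.8 CPM in the same order of libraries in D2 MSN-like nuclei. These ranges overlap. Higher values were found in other inhibitory clusters. An MSN-like cluster led by Sipa1l2, Fign and Dpp10 had 132 to 275 CPM, and one led by Adarb2, Tacr1 and Ankfn1 had 115 to 146 CPM.

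The highest Drd3 level was in an unnamed inhibitory cluster of 187 nuclei led by Folh1, Stac and Glis3. There it had 624 and 804 CPM in Control and 724 and 770 CPM in CrT-KO. These nuclei gave 22.9% of all Drd3 UMIs (19.7% to 28.7% over the libraries). They resembled MSNs in Adcy5 (565 to 734 CPM) and Rgs9 (603 to 671 CPM), but Pde10a was low, at 645 to 1051 CPM, below all libraries of the cortical interneurons (1618 to 1877 CPM). Drd2 was at 0 UMIs in all 4 libraries, which allows up to 36.6 CPM at the lowest depth, and Ano2 had 2 UMIs in all. The cluster was left unnamed because its MSN marker score, 0.432, was under the limit of 0.5 set for a name, and Drd3 itself was among its 10 leading genes. Its median depth was 2530 UMIs.

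**Figure D2:**
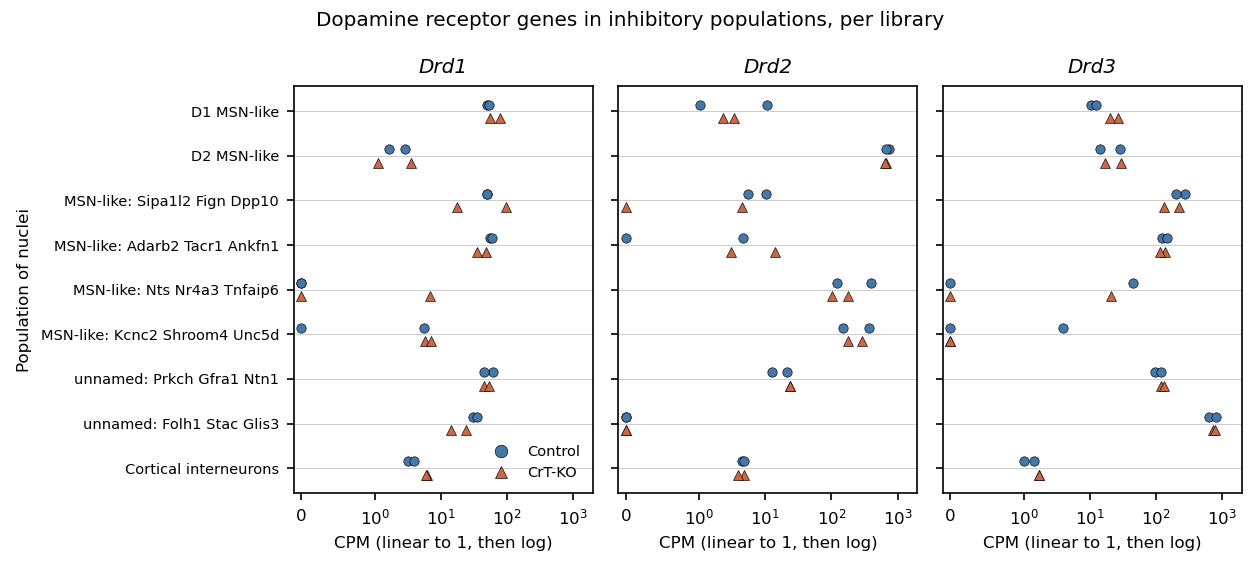
CPM of Drd1, Drd2 and Drd3 per library in inhibitory populations (linear to 1, then logarithmic axis). Circles are the 2 Control and triangles the 2 CrT-KO libraries; MSN-like clusters without a name are given by their leading genes. Drd1 and Drd2 sit in different rows, and Drd3 is highest in the cluster led by Folh1, Stac and Glis3, at 624 to 804 CPM.

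In single nuclei the 2 main receptors seldom met. Among 2003 MSN-like nuclei 249 had a Drd1 UMI, 929 had a Drd2 UMI and 13 had both, with 3, 4, 3 and 3 nuclei in the libraries. Drd2 was thus detected in 5.22% of nuclei with Drd1 (exact 95% interval 2.81% to 8.76%, counting error only) and in 52.2% of nuclei without it. After thinning to 2000 UMIs the count was 5 of 90 nuclei with Drd1. Adora2a was found in 36.2% of nuclei with Drd2 and 3.63% of those without, and in 1.61% of nuclei with Drd1. Drd3 went the other way with Drd2. It was detected in 7.32% of nuclei with Drd2 against 20.1% without, or 2.71% against 9.23% after thinning. With Drd1 the shares were 19.7% against 13.4% without. After thinning they were 8.89% (8 of 90 nuclei, exact 95% interval 3.92% to 16.8%) against 6.83%, so no clear difference remained. Nuclei are not replicates, so these shares carry no test.

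The enzymes that make, break and relay cyclic AMP did not separate the types of MSN. Adcy5, the cyclase, had 1071 and 764 CPM in Control and 959 and 796 CPM in CrT-KO in D1 MSN-like nuclei, and 938, 788, 817 and 746 CPM in D2 MSN-like nuclei, so the ranges overlap. Cortical interneurons held 40.8 to 58.2 CPM and excitatory neurons 39.7 to 45.3 CPM, far below both MSN types. Among named populations oligodendrocytes came next with 145 to 154 CPM, above every named cortical neuron type, and had an Adcy5 UMI in 13.4% of nuclei after thinning against 1.68% of microglia. Within the cortex L2/3 IT-like nuclei (18.8 to 24 CPM) lay below L6 CT-like nuclei (52.3 to 65 CPM) in every library.

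Pde10a, the phosphodiesterase, was the member least particular to MSNs. D1 MSN-like nuclei had 5945 and 5667 CPM in Control and 5308 and 5650 CPM in CrT-KO, and D2 MSN-like nuclei 6019, 5804, 5246 and 5096 CPM. In both types the CrT-KO values were the lower ones, without overlap. CPM did not overlap between genotypes for 35.8% of the genes tested in MSN-like nuclei as a whole. Excitatory neurons had 1514 to 2038 CPM and cortical interneurons 1618 to 1877 CPM, which overlap. MSN-like nuclei gave 14.4% of its 399229 UMIs and excitatory neurons 67.2%. Oligodendrocytes, at 175 to 226 CPM, were lowest of the named populations.

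Ppp1r1b, the phosphatase inhibitor, had 53.4, 36.8, 60.6 and 47.6 CPM in D1 MSN-like nuclei and 55.3, 36.6, 41.7 and 33.7 CPM in D2 MSN-like nuclei, given as the 2 Control and then the 2 CrT-KO libraries. In cortex, excitatory neurons had 2.72 to 3.56 CPM and interneurons 0.181 to 1.03 CPM, and these ranges do not overlap. Oligodendrocytes had 1.17 to 3.92 CPM, a range that holds the excitatory values, so the excitatory level is not shown to lie above theirs. Median depth was 1338 UMIs in oligodendrocytes, 8141 in excitatory neurons and 6145 in cortical interneurons. L6 CT-like nuclei, which project to the thalamus, had 3.16 to 6.32 CPM. Excitatory neurons gave 42.1% of its UMIs and MSN-like nuclei 39.7%.

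Rgs9, the G protein regulator, was the steadiest of the members over libraries, with 895, 859, 850 and 895 CPM in MSN-like nuclei. MSN-like nuclei gave 59.5% of its UMIs. SST-like interneurons held 70.9 to 94.7 CPM, against 6.48 to 12.7 CPM in PV-like, 7.2 to 19.7 CPM in VIP-like and 1.9 to 11.9 CPM in LAMP5-like interneurons, so SST-like nuclei lay above the other interneurons in every library. Of the named excitatory types, L6 IT-like (34.7 to 39.9 CPM) and L6 CT-like nuclei (29.3 to 40.5 CPM) were highest and overlapped, and an unnamed excitatory cluster led by Ndst4, E130114P18Rik and Abi3bp had 49.2 to 81.7 CPM, while L4/5 IT-like nuclei had 3.88 to 7.13 CPM.

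**Figure D3:**
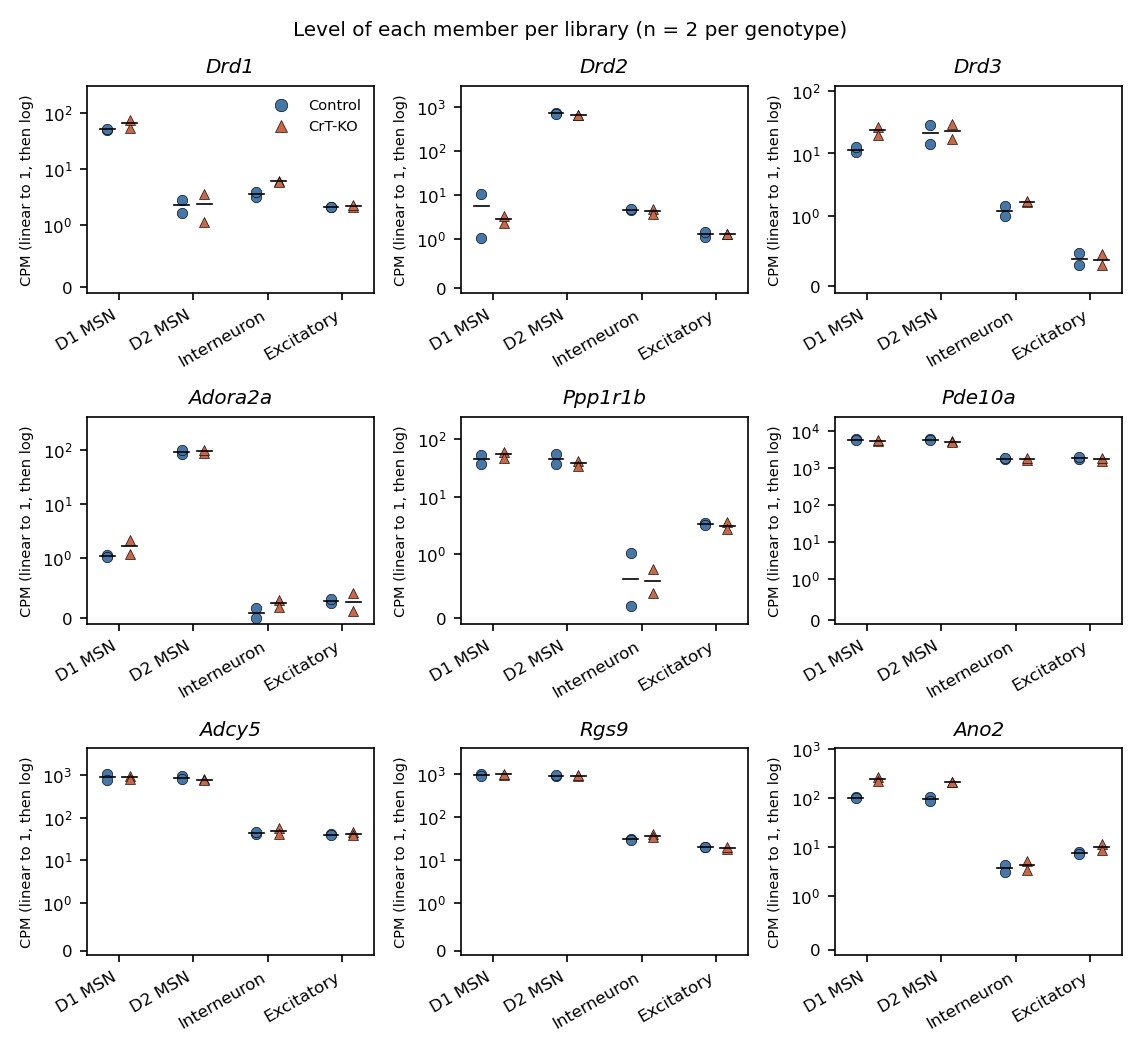
CPM of each member per library in D1 and D2 MSN-like nuclei, cortical interneurons and excitatory neurons (linear to 1, then logarithmic axis). Circles are Control, triangles CrT-KO and bars the mean of 2 libraries. Drd1, Drd2 and Adora2a separate D1 from D2 nuclei and the other members do not. In both MSN types Ano2 alone has its CrT-KO points clear above its Control points, and Pde10a has them below. CPM without overlap were common, at 35.8% of all genes tested in MSN-like nuclei.

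Between genotypes none of the 8 tested genes passed the threshold (edgeR quasi-likelihood test on UMIs summed per library, adjusted p under 0.1 over all genes) in MSN-like nuclei, where 7 of 9634 genes did (0.0727%). The comparisons that follow share the same 4 libraries, and D1 and D2 nuclei are part of the MSN-like total, so they are not independent of each other. The animals were separate, 2 against 2. In simulated data of this size the test recovered 82.3% of 96 genes changed 2-fold (1 on the log2 scale) in MSN-like nuclei. Recovery was 68.5% in D1 and 68.7% in D2 MSN-like nuclei. Of the simulated calls 8.02% were false in MSN-like, 12.6% in D1, 8.43% in D2, 10.1% in excitatory and 7.41% in cortical interneuron nuclei. Every simulated gene was given the same spread between libraries, which was assumed and not estimated from these data, and recovery was taken over all changed genes. It is therefore not the power for any single member, such as those with few UMIs.

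For Drd2 the MSN-like values were 378 and 322 CPM in Control and 321 and 254 CPM in CrT-KO. The CrT-KO values were the lower ones, with hardly a gap between 322 and 321, a difference of -0.26 on the log2 scale (SE 0.11), with an adjusted p of 0.685 from edgeR. CPM that did not overlap between genotypes were common, found for 35.8% of the genes tested. Within D2 MSN-like nuclei the difference was -0.09 (SE 0.11, edgeR adjusted p = 0.954).

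Drd1 had 24, 24.8, 24 and 39.1 CPM in MSN-like nuclei, so that 1 CrT-KO library stood above 3 like values. On the log2 scale it differed by 0.35 (SE 0.22), with an adjusted p of 0.812 from edgeR, and without CrT-KO replicate 2 it was -0.04. That library also had the largest share of D1 among D1 and D2 MSN-like nuclei, 47.4% against 39.1%, 39.3% and 36.4% in the others (two-sided exact permutation test of genotype, p = 1; the smallest possible is 0.333). Within D1 MSN-like nuclei Drd1 differed by 0.37 (SE 0.23, edgeR adjusted p = 0.927).

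Drd3 differed by 0.31 (SE 0.19, edgeR adjusted p = 0.812) in MSN-like nuclei. In D1 MSN-like nuclei its 9 and 12 UMIs in Control stood against 23 and 18 in CrT-KO, which differ by 1.00 on the log2 scale (SE 0.40) with an adjusted p of 0.697 from edgeR, where 5 of 6758 genes (0.074%) passed the threshold. Of the 8 genes Drd2 and Adora2a were too low to be tested there. In D2 MSN-like nuclei 8 of 7752 genes passed (0.103%), Drd1 was too low to be tested, and the log2 fold changes of the other 7 lay between -0.24 for Ppp1r1b and 0.15 for Drd3, with none past the threshold.

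The relay genes were closer between genotypes. In MSN-like nuclei the log2 fold change was -0.17 for Adcy5 (SE 0.11), -0.13 for Pde10a (SE 0.11), -0.04 for Ppp1r1b (SE 0.18), 0.01 for Rgs9 (SE 0.10) and -0.18 for Adora2a (SE 0.16), with edgeR adjusted p between 0.826 and 0.995. The median over the 8 genes was -0.09, with 3 above 0, against a median of -0.00213 over all genes tested. Among all nuclei the MSN-like share was 6.67% and 5.75% in Control and 5.86% and 5.03% in CrT-KO (two-sided exact permutation p = 0.667).

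**Figure D4:**
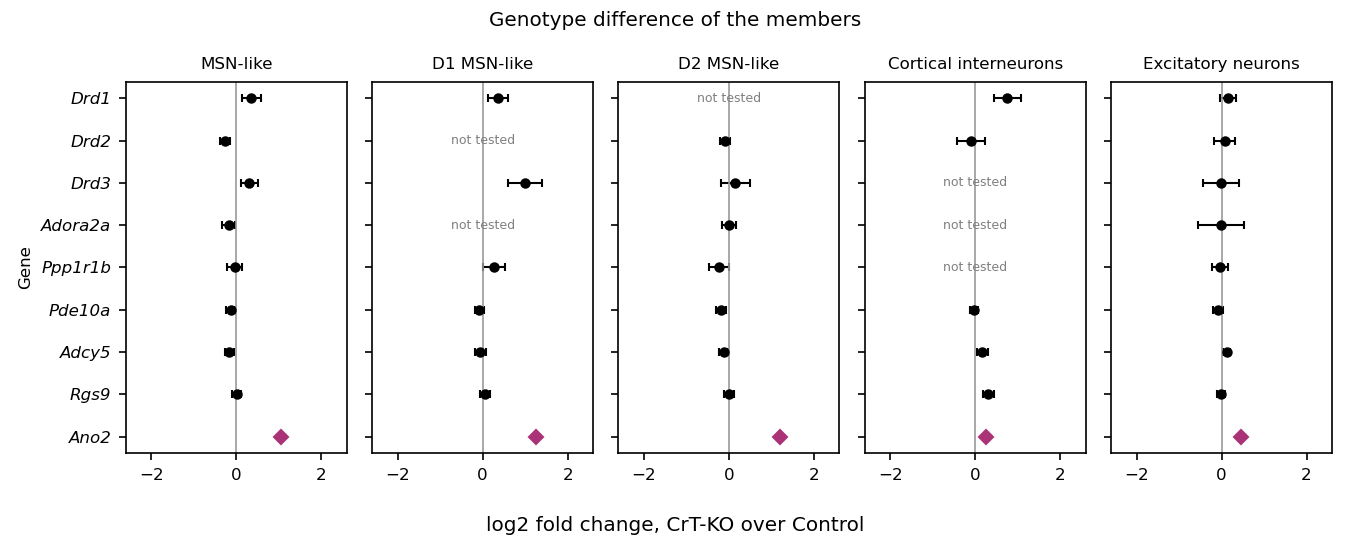
log2 fold change of the members, CrT-KO over Control, in 5 populations. Points with bars are edgeR estimates with their standard errors, and diamonds are Ano2, shown without error or test. The 8 other genes lie between -0.26 and 0.35 in MSN-like nuclei, and the farthest from 0 elsewhere are Drd3 in D1 MSN-like nuclei (1.00) and Drd1 in cortical interneurons (0.76), both without passing the threshold.

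In excitatory neurons 27 of 13957 genes (0.193%) passed the threshold and none of the 8 genes was among them. Their log2 fold changes lay between -0.08 for Pde10a and 0.15 for Drd1. CPM did not overlap between genotypes for 41% of the genes tested. For Adcy5 the excitatory value was 0.12 (SE 0.08), with an adjusted p of 0.733 from edgeR, against -0.17 in MSN-like nuclei. An interaction term, fitted with libraries as blocks, put the difference of these effects at -0.28 (SE 0.09, edgeR adjusted p = 0.434), the lowest adjusted p among the 8 genes, while 31 of 13645 genes (0.227%) passed.

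Leaving out any 1 library, or a replicate block, called none of the 8 genes in these populations, although the number of genes called over the whole table varied widely.

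In cortical interneurons 8 of 11351 genes (0.0705%) passed, and 5 of the 8 members could be tested. Drd1 was counted at 18 and 23 UMIs in Control and 40 and 31 in CrT-KO, or 3.25, 3.95, 6.17 and 5.96 CPM. Both CrT-KO values were the higher, as CPM were without overlap for 32.8% of the genes tested, and they differed by 0.76 on the log2 scale (SE 0.32), with an adjusted p of 0.895 from edgeR. PV-like nuclei had 3.47, 3.74, 7.16 and 6.48 CPM and SST-like nuclei 4.19, 4.69, 8.4 and 7.95 CPM. These counts are 8 to 18 UMIs per library. Rgs9 differed by 0.30 (SE 0.13, edgeR adjusted p = 0.896) with 31.5, 29.7, 40 and 34.6 CPM.

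Ano2 had the largest genotype difference of the 9 members in MSN-like nuclei, and this was known when it was chosen. In MSN-like nuclei 250 and 245 UMIs were counted in Control and 578 and 421 in CrT-KO, which is 95.4, 79, 185 and 172 CPM. Both CrT-KO libraries lay above both Control libraries, 2.04 times on the mean, while CPM did not overlap for 35.8% of all genes tested there. The values were 103 and 98.8 against 262 and 217 CPM in D1 MSN-like nuclei and 102 and 86.7 against 213 and 216 CPM in D2 MSN-like nuclei, with log2 fold changes of 1.25 and 1.19. Nothing is read from these differences beyond their size.

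More MSN-like nuclei held the transcript, and those that did held more of it. An Ano2 UMI was seen in 30% and 29.9% of Control and 49.9% and 47.2% of CrT-KO MSN-like nuclei, or 7.28%, 7.62%, 16% and 12.3% after thinning to 1000 UMIs. In oligodendrocytes the share was 0.318%, or 0.187% thinned. Nuclei with a UMI had 1.55 and 1.60 Ano2 UMIs on average in Control and 2.21 and 2.07 in CrT-KO. The 10 nuclei with the most Ano2 gave 16.8%, 14.7%, 12.6% and 16.9% of the UMIs, so no library was carried by a few nuclei. Median depth in these nuclei was 4565.5 and 5838.5 UMIs in Control and 5680 and 5514.5 in CrT-KO.

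In the other 4 MSN-like clusters the values overlapped or rested on few UMIs. The cluster led by Adarb2, Tacr1 and Ankfn1 had 9.14 and 45.6 CPM in Control and 39.4 and 20.9 CPM in CrT-KO, that led by Nts, Nr4a3 and Tnfaip6 had 104 and 40.2 against 68.6 and 110 CPM, and that led by Kcnc2, Shroom4 and Unc5d had 165 and 63.1 against 170 and 116 CPM. The cluster led by Sipa1l2, Fign and Dpp10 had 0 and 0 against 5 and 1 UMIs.

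Outside the MSN-like nuclei the order of the Ano2 values also varied by type. Such orders are common, since CPM did not overlap for 41% of the genes tested in excitatory neurons as a whole. L2/3 IT-like nuclei had 3.45 and 4.51 CPM in Control and 13.5 and 9.08 CPM in CrT-KO. L6 IT-like nuclei had 2.78 and 2.32 against 8.91 and 7.48 CPM, where 10 nuclei gave 79.2% to 100% of the UMIs. The shares of L6 IT-like nuclei with Ano2 did not overlap as deposited (2.57% and 2.14% in Control, 4.18% and 3.88% in CrT-KO). After thinning they overlapped (0.257% and 0.238% in Control, 0.246% and 0.517% in CrT-KO). L5/6 NP-like nuclei, the highest cortical type named, had 28.8 and 26.6 against 21.2 and 16.9 CPM, so that here the Control values were the higher. However, 10 nuclei gave 62.5% to 75% of the UMIs. The shares of L5/6 NP-like nuclei with Ano2 overlapped as deposited (9.39% and 9.69% against 10.5% and 8.48%). They did not overlap after thinning (2.35% and 2.2% against 1.83% and 1.34%). The L5/6 NP-like name covers a cluster of 509 nuclei (marker score 3.692) and another of 374 nuclei (0.958). The latter was led by Pde11a, Adamtsl1 and Dcn, and Ano2 is not given for each apart. SST-like interneurons had 9.43 and 7.3 against 12.1 and 6.89 CPM and overlapped. PV-like interneurons had 6 UMIs in all. An unnamed excitatory cluster led by Dach1, Unc13c and Ptpro had 43.1, 40.1, 56.2 and 37.2 CPM, with overlap. An unnamed inhibitory cluster of 522 nuclei led by Prkch, Gfra1 and Ntn1, which also held Drd3 at 95.3 to 134 CPM, had 119 and 108 against 172 and 176 CPM. This cluster resembled MSNs, with an MSN marker score of 1.149, over the limit of 0.5 for a name. An Adcy5 UMI was found in 86.4% and an Rgs9 UMI in 79.8% of its nuclei. It stayed unnamed because its 10 leading genes held Sulf1, a PV marker, and no MSN marker.

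**Figure D5:**
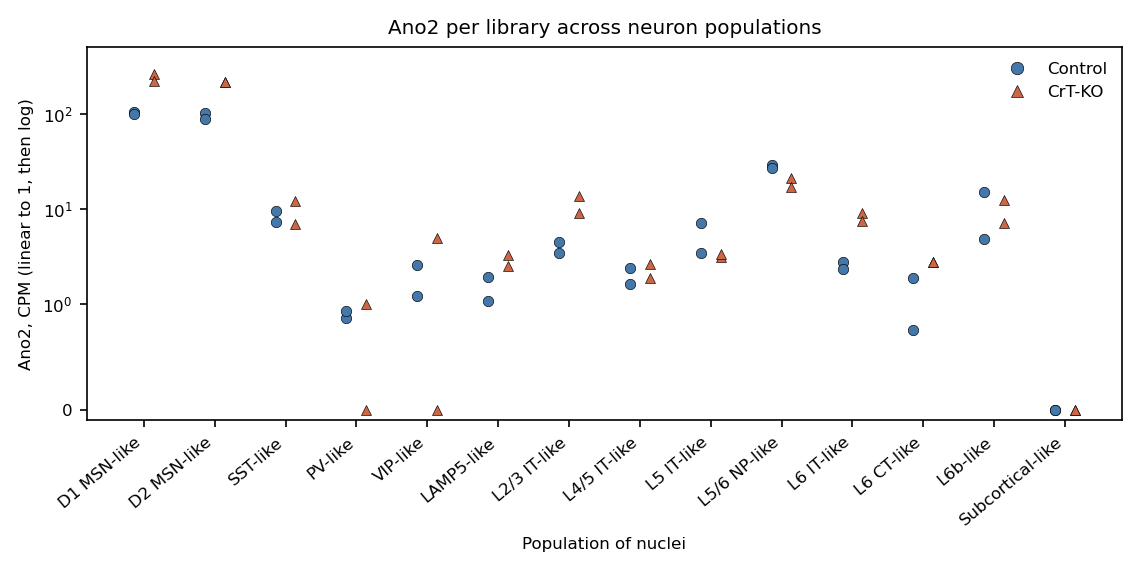
Ano2 CPM per library in 14 neuron populations (linear to 1, then logarithmic axis). Circles are Control and triangles CrT-KO. CrT-KO points lie above Control points in D1 and D2 MSN-like, L2/3 IT-like and L6 IT-like nuclei and below them in L5/6 NP-like nuclei. CPM without overlap were common, at 35.8% of all genes tested in MSN-like nuclei and 41% in excitatory neurons.

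Genes that work beside the members were taken from lists set with earlier results of these data known. Of 44 partners of the dopamine receptor and cyclic AMP cascade with at least 20 UMIs, 23 were higher in MSN-like nuclei than in both cortical neuron types in 4 of 4 libraries and 9 were lower (52.3% and 20.5%), against 9.09% of all genes higher and 14.4% lower. Examples in this and the next paragraph were picked after their values were seen. Those higher included Gnal, the stimulatory G protein subunit of the striatum, at 958 to 1080 CPM against 81.4 to 93.2 CPM in excitatory neurons, and Rasd2, a small GTPase of the striatum, at 34.5 to 44.6 against 2.47 to 3.08 CPM. The other dopamine receptors were nearly absent, with 2 UMIs of Drd4 and 0 of Drd5 in MSN-like nuclei.

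Of 8 other adenylyl cyclases, 6 (75%) were lower in MSN-like nuclei. The 1 that was higher (12.5%, near the share of all genes) was Adcy3, with 53.4 to 74.8 against 39.8 to 42.6 CPM in excitatory neurons. Of 16 phosphodiesterases 5 were higher (31.2%) and 6 lower (37.5%). Pde1b, a calmodulin-dependent enzyme, had 191 to 230 against 16.2 to 20.2 CPM, and Pde7b 2183 to 2530 against 289 to 416 CPM. Adk and Nt5e, which remove and form adenosine, were higher in D2 than in D1 MSN-like nuclei, at 361 to 556 against 58.1 to 91.9 CPM for Adk and 120 to 154 against 12.8 to 24.3 CPM for Nt5e. Of 8 other anoctamins 1 was higher (12.5%, again near all genes) and 2 lower (25%). The higher one was Ano6, a lipid scramblase, at 160 to 179 against 92.4 to 101 CPM in excitatory neurons. Of the genes for dopamine synthesis, transport and breakdown, Ddc, the enzyme that forms dopamine, was higher, at 3.82 to 12.8 against 0.67 to 0.877 CPM in excitatory neurons, while Th had 3 and Slc6a3 0 UMIs in MSN-like nuclei.

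No gene of these 6 lists passed the threshold between genotypes in MSN-like, D1 MSN-like, D2 MSN-like, excitatory or cortical interneuron nuclei. In MSN-like nuclei the median log2 fold change was -0.02 over 42 tested cascade partners, 0.04 over 6 cyclases, 0.06 over 12 phosphodiesterases, -0.06 over 4 genes of adenosine handling, 0.08 over 4 genes of dopamine handling and -0.01 over 6 anoctamins.

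The genes whose levels over the 19 named populations were most like those of each member were sought among 11316 genes, with Pearson's r of log2(CPM + 1) as the measure. The populations share 4 libraries and differ in depth, so r is a description. Drd1 was closest to Isl1 (0.769), Htr1d (0.733) and Bcl11b (0.708), Drd2 to Penk (0.825), Upb1 (0.813) and Scmh1 (0.791), and Adora2a to Upb1 (0.905), Penk (0.847) and Six3 (0.833). Drd3 was closest to Pik3r4 (0.926), Arel1 (0.909) and Mbtps1 (0.904), and Ppp1r1b to Six3 (0.897), Slc26a5 (0.891) and Fam160b2 (0.864). For Pde10a they were Gnb5 (0.917) and Plcb1 (0.899), for Adcy5 Ccdc187 (0.901), Syndig1l (0.865) and Strn (0.858), for Rgs9 Rarb (0.889), Tomm70a (0.874) and Clic6 (0.866), and for Ano2 Rxrg (0.886), Syndig1l (0.869) and Clic6 (0.861). Among the members Ano2 was most like Rgs9 (0.879) and Adora2a most like Drd2 (0.871), while Drd1 and Drd2 had an r of 0.111.

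All members lie on autosomes in GRCm38. Drd1 spans chr13:54051183-54055705 on the minus strand, Drd2 chr9:49340627-49408177 on the plus strand and Ano2 chr6:125690419-126040126 on the plus strand. Of the genes in the matrices only Gm17087 overlaps a member, Pde10a on the opposite strand, and it had 0 UMIs in MSN-like nuclei.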

How the data were processed

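Single-nucleus libraries were counted by the authors with Cell Ranger 3.1.0 on a pre-mRNA version of GRCm38 (mm10), in which introns count, and analysed by them in Seurat 3.1.4, per the labels and the submitters' processing notes. The deposited values are raw UMI counts per gene and nucleus, with no normalization. Library totals were 51507483 to 65240843 UMIs, and 99.5% of genes matched GENCODE vM21. Strand handling is not given in the sources used here.

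Doublets called within each library (2.91% to 4.17%) were removed. Nuclei were clustered in scanpy 1.11.5 (3000 variable genes without the members, 30 principal components, 20 neighbours, Leiden resolution 1, or 0.3 within MSN-like nuclei) and named X-like from marker lists. Members, lists and markers were chosen with earlier results of these data known, and naming limits were set after the matrices had been seen. Clusters below these limits are given by their leading genes. The rule for named genes took the members, Slc6a8, any list gene past the threshold (there was none) and, for each member, the 3 genes with the highest r among genes with at least 10 CPM in a population. List genes named for their levels were chosen after their values were seen.

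Sums of UMIs over the nuclei of a population in each library were tested in edgeR 4.0.16 (quasi-likelihood, TMM, filterByExpr with a minimum count of 10, Benjamini-Hochberg over all genes, threshold 0.1) with genotype as the only term; the interaction had the library as a block. SE is the log2 fold change over the root of F. The steps were tested on simulated data. Alternatives were DESeq2 1.42.0, RLE size factors, no filter, a replicate block, each library left out, doublets kept, threshold 0.05, members among the clustering genes, nuclei with at least 1000 UMIs, and an unnamed cluster added to the MSN-like nuclei, the last chosen after seeing the data. Floors are 3 counts, and intervals and floors cover counting error only. Replicates of a genotype differed by more than counting noise (chi-square over degrees of freedom 10.6 and 10.3), so each was counted as a sample. RefSeq promoters are not printed for Adora2a and Ppp1r1b. A few genes that these rules or lists would name are not reported here.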

Additional observations from a re-analysis of the deposited data

Results flagged for a closer look

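In 4 of 8 members with at least 50 UMIs in several types of neuron, both CrT-KO libraries lay above both Control libraries in one type and below them in another. The same held for 49.8% of 10827 genes over these 13 types, so the members' share (50%) is that of genes at large and says nothing about them. With 2 libraries per genotype the difference was not tested, and the pairs given are those with the widest gap among the types compared. For Drd1 the log2 ratio of mean CPM, CrT-KO over Control, was 0.88 in SST-like and -0.82 in L6 CT-like nuclei, a difference of 1.7 among 5 populations. L6 CT-like nuclei had 3.91 and 4.68 CPM in Control and 2.09 and 2.77 CPM in CrT-KO, from 13 to 25 UMIs per library. For Ano2 it was 1.68 in L6 IT-like and -0.54 in L5/6 NP-like nuclei, a difference of 2.22 among 7 populations. Few nuclei carried both values. In L6 IT-like libraries 10 nuclei gave 79.2% to 100% of the Ano2 UMIs, and in L5/6 NP-like libraries 62.5% to 75%. The share of L5/6 NP-like nuclei with Ano2 overlapped as deposited (9.39% and 9.69% in Control, 10.5% and 8.48% in CrT-KO). After thinning that share did not overlap (2.35% and 2.2% against 1.83% and 1.34%). The share of L6 IT-like nuclei did not overlap as deposited (2.57% and 2.14% against 4.18% and 3.88%) but did after thinning. For Rgs9 it was 0.28 in SST-like and -0.40 in L5 IT-like nuclei, a difference of 0.673 among 10 populations, and for Adcy5 0.41 in SST-like and -0.23 in L4/5 IT-like nuclei, a difference of 0.639 among 13 populations.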

How the results depend on the processing

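No alternative brought any of the 8 tested members past the threshold. Their log2 fold changes kept their direction in 376 of 416 values, and the lowest adjusted p was 0.143, for Pde10a in excitatory neurons. Ano2 kept its direction in MSN-like nuclei throughout (0.96 to 1.14). Levels moved by more than 1 SD in 14 of 315 values. However, leaving out a library cannot shift the mean of 4 libraries by more than 1 SD of those libraries. The floor of 1000 UMIs dropped no MSN-like nucleus, so levels in those nuclei stayed the same under it. Such values could not move, so 14 of 315 is no measure of how stable the levels were. The cause of the changes below was not tested.

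Genes called in MSN-like, D1, D2, excitatory and cortical interneuron nuclei numbered 7, 5, 8, 27 and 8. With DESeq2 they were 2 in D1, 2 in D2, 69 in excitatory and 2 in interneuron nuclei. Without the filter they were 44, 0, 36, 11 and 0, where the edgeR counts at an unadjusted p under 0.05 were 520 in D1 and 670 in interneuron nuclei, and the interaction gave 62 against 31. With doublets kept they were 24 in MSN-like, 10 in D1, 24 in D2 and 13 in interneuron nuclei. At threshold 0.05 D2 gave 4 and excitatory nuclei 14. With members among the clustering genes D1 gave 15 and D2 14, and with the added cluster MSN-like nuclei gave 11. The labels do not say whether replicate numbers pair the samples. Correlations of same-numbered deviations were low but positive in each population (0.0619 to 0.159), which does not settle it. A replicate block gave 21, 66, 46, 500 and 95 calls.

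Leaving out 1 library, which leaves a genotype with a lone library assumed to vary like the other, gave 15 to 93 calls in MSN-like, 5 to 31 in D1, 9 to 66 in D2, 12 to 213 in excitatory and 14 to 55 in interneuron nuclei, highest without Control replicate 2 except in excitatory nuclei (without CrT-KO replicate 2), and 3 to 29 for the interaction. Log2 fold changes that crossed 0 then ranged in MSN-like nuclei from -0.0397 to 0.714 for Drd1, -0.00784 to 0.533 for Drd3, -0.319 to 0.16 for Ppp1r1b and -0.0544 to 0.0688 for Rgs9. In D1 nuclei Adcy5 ranged from -0.25 to 0.173. In D2 nuclei the ranges were -0.336 to 0.824 for Drd3, -0.16 to 0.187 for Adora2a, -0.467 to 0.0241 for Ppp1r1b and -0.0839 to 0.0751 for Rgs9. In excitatory nuclei they were -0.116 to 0.307 for Drd2, -0.338 to 0.342 for Drd3, -1.24 to 0.538 for Adora2a, -0.233 to 0.119 for Ppp1r1b, -0.283 to 0.103 for Pde10a and -0.0778 to 0.054 for Rgs9. In interneuron nuclei they were -0.243 to 0.0269 for Drd2, -0.161 to 0.0882 for Pde10a, -0.0993 to 0.371 for Adcy5 and -0.109 to 0.485 for Ano2. The interaction ranged from -0.125 to 0.494 for Drd1, -0.308 to 0.873 for Drd3, -0.741 to 1.08 for Adora2a, -0.14 to 0.119 for Ppp1r1b, -0.197 to 0.106 for Pde10a and -0.0111 to 0.0367 for Rgs9. The D1 share differed by -2.77 to 8.18 percentage points, against 2.71.

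Values near 0 also changed sign elsewhere. With doublets kept Ppp1r1b was 0.00618 in MSN-like nuclei, Adora2a -0.0281 in D2 and Drd3 0.387 in excitatory nuclei, and the interaction was -0.127 for Drd3 and 0.0463 for Ppp1r1b. With the added cluster Ppp1r1b was 0.0162. In D2 nuclei Adora2a was -0.00563 without the filter and -0.0284 with members among the clustering genes, and Rgs9 was 0.0329 with those members, 0.00225 with DESeq2 and 0.00185 with RLE size factors. Drd3 was 0.0204 with DESeq2 in excitatory nuclei. Nuclei with both Drd1 and Drd2 were 0.653% of MSN-like nuclei and 0.252% after thinning. Counts of Drd3, Adora2a and Ppp1r1b in cortical interneurons were under the filter, so their genotype differences there were not tested.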

Other observations

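Of the 2003 MSN-like nuclei 669 had no UMI of Drd1, Drd2 or Drd3, 189 had Drd1 only, 850 Drd2 only, 169 Drd3 only, 47 Drd1 with Drd3, 66 Drd2 with Drd3, 11 Drd1 with Drd2, and 2 all 3 receptors. Ano2 was detected in 43% of MSN-like nuclei with Drd1 and 38.3% of those without, in 42.7% with Drd2 and 35.6% without, and in 29.2% with Drd3 and 40.5% without. Outside the named populations, Drd1 had 44.7 to 60.9 CPM in the inhibitory cluster led by Prkch, Gfra1 and Ntn1, where Drd2 had 12.5 to 23.3 CPM.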
